A study of Homo sapiens with 4 samples.

Results

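DUT and TYMS, the genes of deoxyuridine triphosphatase and thymidylate synthase, were followed in SW480 cells treated with a postbiotic of Bacillus mojavensis. The array tables name 1 probe for each gene, DUT by the accession of a nuclear dUTPase transcript and TYMS by that of thymidylate synthase, and each probe was printed as 2 spots on each array. They are 2 of 1843 measured genes, a count that includes probes without a gene name. Both were picked by name with their treated over control ratios on these same arrays already known, so those ratios are given as a description and without a test.

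SW480 is an established human cell line that came from a colon adenocarcinoma. The treated group, BM, received 15% (v/v) of the B. mojavensis postbiotic for 10 h, and the control group, MRS, received 15% (v/v) of the MRS medium in which the bacterium is grown, so both groups were exposed to MRS. Serum was at 10% for all 4 samples. One label field gives 15% MRS for all 4 samples, and the groups were taken from the titles and source names, which separate them. Each group held 2 samples, described as independently grown and harvested biological replicates of 1 cell line, and each array held 1 BM and 1 MRS sample of the same replicate number. The submitters numbered these replicates 2 and 3, and they are called 1 and 2 here. BM was labelled with Alexa Fluor 647 and MRS with Alexa Fluor 555 on both arrays, so dye and treatment cannot be told apart in any ratio here.

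Thymidylate synthase methylates dUMP to dTMP with a folate cofactor and is the only route by which cells make thymidylate from uridine nucleotides. Deoxyuridine triphosphatase splits dUTP into dUMP and pyrophosphate, which feeds thymidylate synthase and keeps uracil out of DNA. Fluorouracil, a mainstay of colon cancer treatment, is turned into a nucleotide that blocks thymidylate synthase, after which dUTP and its fluorinated form accumulate, and the levels of both enzymes have been tied to the response.

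DUT lies on human chromosome 15 (chr15:48331095-48343373) and TYMS on chromosome 18 (chr18:657653-673578), both on the forward strand, in RefSeq coordinates of GRCh38.p14. The TYMS span overlaps that of ENOSF1 (chr18:662986-712630). Both genes are textbook targets of the E2F factors of the G1/S transition, so 100 bases before an annotated start are shown for each. The E2F consensus words searched, in capitals where found, were TTTGGCGC and TTTCGCGC on either strand, in the 250 bases before a start. Other forms of the E2F site were not searched, so lower case does not mean that a stretch holds none.
DUT, chr15:48332097-48332196: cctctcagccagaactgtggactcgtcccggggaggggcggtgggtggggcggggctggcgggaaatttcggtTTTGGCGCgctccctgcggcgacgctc
TYMS, chr18:657553-657652: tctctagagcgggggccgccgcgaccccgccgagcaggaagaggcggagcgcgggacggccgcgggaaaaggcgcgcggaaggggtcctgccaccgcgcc
The word TTTGGCGC begins 27 bases before the most downstream of the 4 annotated DUT starts. Neither word is in the windows of the other 3 DUT starts or in the TYMS window. Of the 35116 RefSeq windows, 0.968% hold one of these words, and 1.2% of 27305 genes have one in any of their windows. The array tables give no probe sequence, and which DUT start the probed transcript uses is not recorded in them.

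The medians of raw intensity over all spots were 1655 and 1895 in BM and 1985 and 2186 in MRS, in arbitrary scanner units. Of 3786 spots that were not controls, 97.2% stood at 1.5 times local background or more in all 4 samples. All 7 measured markers of the colon epithelium did so, EPCAM and CEACAM5 among them, but so did all 5 measured leukocyte markers and all 6 measured fibroblast markers, so signal above background does not separate expressed from silent genes here. The number of arrays limits the precision of every value.

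The DUT spots were at the top of the intensity scale in the BM samples. Their raw intensity was 65535 and 65514 in BM replicate 1 and 65535 and 65535 in BM replicate 2, against 43574 and 44981 in MRS replicate 1 and 45919 and 43870 in MRS replicate 2. The value 65535 is the largest that a 16-bit image holds, so 3 of the 4 BM spots of DUT were saturated over their whole area and the other stood at 99.97% of the maximum. The MRS spots stood at 66.5% to 70.1% of it, though a spot mean does not show whether single pixels were saturated. The local backgrounds lay far below, with raw intensity at 629 to 792 times background in BM and 699 to 908 times in MRS.

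DUT was the only gene with spots exactly at the maximum, but not the only one with spots next to it. The 3 saturated spots of the BM samples were all of DUT, and no MRS spot reached it. RPL5, a ribosomal protein gene picked out by its brightness, came closest, with mean raw intensities of 57924 and 65524 in BM and 40920 and 45091 in MRS. In BM replicate 1, 2 spots read 65000 or more, both of DUT. In BM replicate 2, 4 spots did, 2 of them of DUT, so readings next to the maximum were not particular to DUT. A saturated reading can only understate the signal. Every BM over MRS ratio of DUT is therefore a lower bound before normalization, provided that no pixels of its MRS spots were saturated. Duplicate DUT spots differed by 0.0313% and 0% of their mean in the BM samples, against 3.18% and 4.57% in the MRS samples, where the readings were free to vary.

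**Figure D1:**
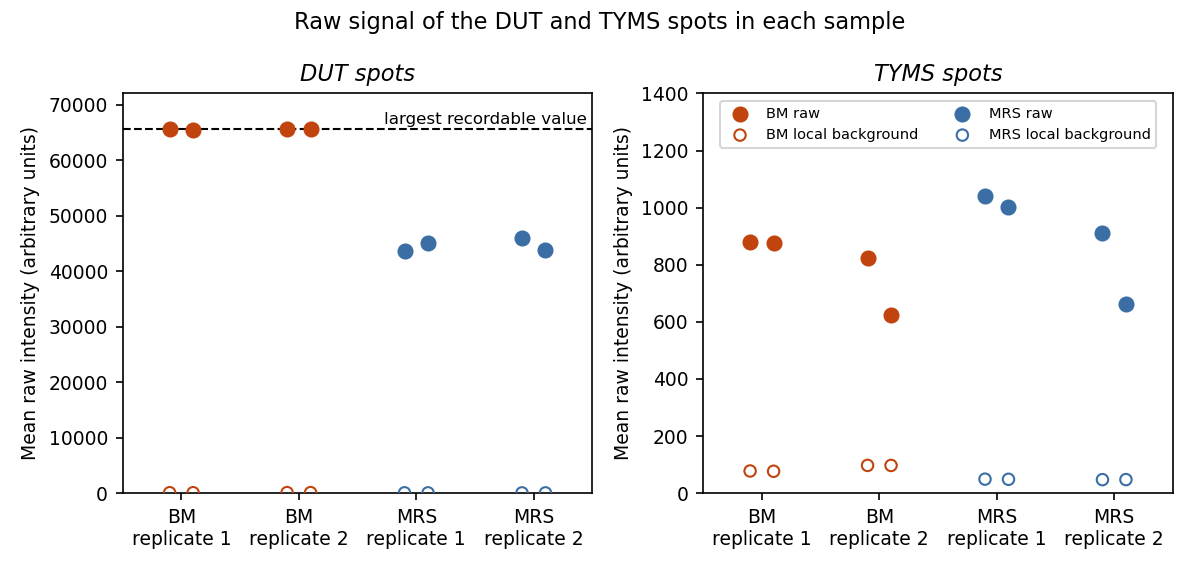
Mean raw intensity (filled, arbitrary units) and local background (open) of both spots of DUT (left) and TYMS (right) in each BM and MRS sample. The BM spots of DUT lie on the dashed line at 65535, the MRS spots of DUT between 43574 and 45919, and the TYMS spots of both groups at or below 1042 with overlapping ranges.

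The log2 BM over MRS ratio of DUT before normalization was 0.57 on array 1 and 0.54 on array 2. Ratios on these arrays rose toward the bright end, and loess, a smooth curve through ratio against intensity, subtracted 0.31 and 0.27 at the DUT spots. After loess the ratios were 0.26 and 0.27, a mean of 0.27 ± 0.0082 (SD, n = 2), or at least 1.20-fold higher in BM given this loess curve. The saturation bounds the ratio for a given curve only, and only if the MRS spots held no saturated pixels. Other curves gave lower and higher values. The normalized log2 intensities were 15.86 and 15.80 in BM (mean 15.83) and 15.60 and 15.53 in MRS (mean 15.57), with no overlap. BM lay wholly above MRS in 57 of the 1843 genes (3.09%) and wholly below it in 66 (3.58%). The SD of 0.0082 does not measure the spread between BM cultures, because the BM readings sat at the maximum on both arrays.

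The loess curve ran below most of the few brightest genes. DUT was the brightest of the 1843 genes on array 1 and the third brightest on array 2, a rank of spot signal and not of transcript amount. Of the other 9 genes among the 10 brightest, a number chosen after the data were seen, 8 were higher in BM on both arrays after loess. Their mean ratios ran from 0.032 to 0.29 with a median of 0.22, against -0.0057 over all genes. The DUT ratio of 0.27 lay inside that range, and 1 of the 9 exceeded it. Farther from the bright end this faded, with 12 of the other 19 higher on both arrays among the 20 brightest (median 0.11) and 24 of the other 49 among the 50 brightest (median 0.060). With a loess span of 0.1 in place of 0.3, which follows the bright end more closely and was added after the data were seen, the DUT ratios fell to 0.066 and 0.17 (mean 0.12, or 1.09-fold). The part of brightness in the DUT ratio was not tested beyond these values.

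**Figure D2:**
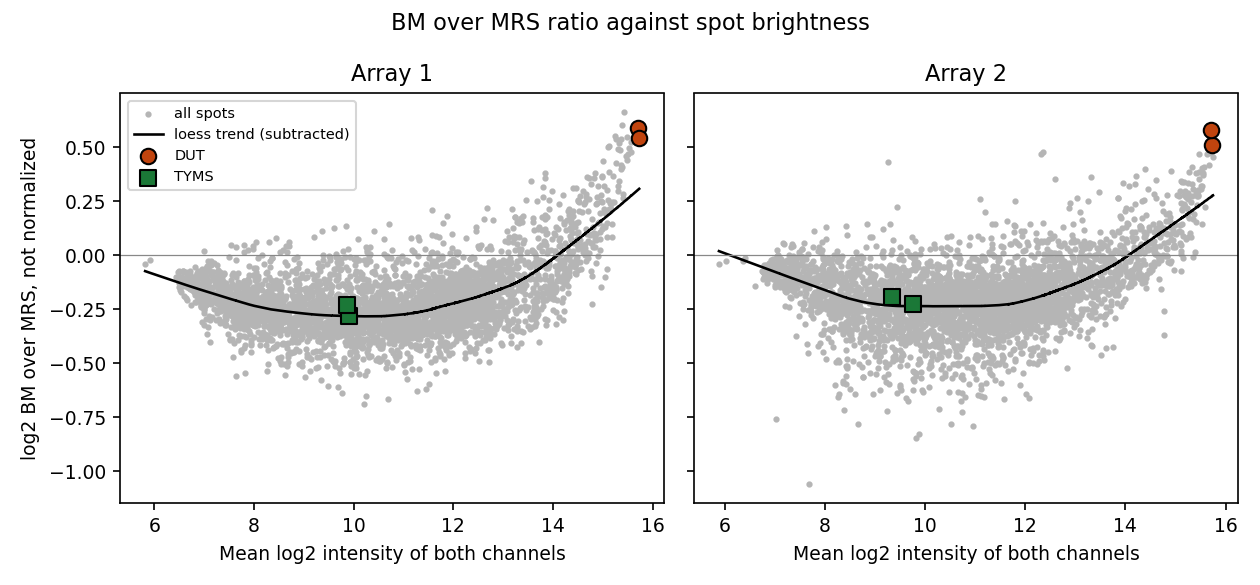
Log2 BM over MRS ratio of each spot before normalization against its mean log2 intensity on array 1 and array 2, with the loess curve as a line. The DUT spots sit at the bright end with other spots above the curve, and the TYMS spots sit on its flat part.

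TYMS read lower in BM on both arrays before normalization, at log2 ratios of -0.26 and -0.21, and nearly equal in both groups after loess. Its spots read 879 and 878 in BM replicate 1 and 824 and 623 in BM replicate 2, against 1042 and 1003 in MRS replicate 1 and 912 and 662 in MRS replicate 2. These lie below each sample's median raw intensity, at 6.42 to 11.4 times local background in BM and 13.9 to 21.2 times in MRS. The groups overlapped across arrays, while within each array each spot read lower in BM, and replicate 2 read lower than replicate 1 in both. On array 2 the duplicate spots differed by 27.7% of their mean in BM and 31.8% in MRS, while on array 1 they differed by 0.164% and 3.87%. The spot that read low did so in both channels, so the ratio of the pair stayed close to that of array 1.

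The TYMS ratio after loess was 0.025 on array 1 and 0.023 on array 2, a mean of 0.024 ± 0.0014 (SD, n = 2), or 1.02-fold. With its standard error of 0.052 from the limma fit over all genes, the 95% interval ran from -0.11 to 0.16, or from 0.924-fold to 1.12-fold. TYMS was chosen with this ratio known, so the interval is a description and not a test. Of the 1843 genes, 24.2% had a mean ratio nearer to 0. The SD here is far smaller than the difference between duplicate spots, whose ratios were -0.0013 and 0.052 on array 1 and 0.0081 and 0.039 on array 2. Normalized log2 intensities of TYMS were 10.04 and 9.33 in BM and 10.02 and 9.31 in MRS, so the arrays differed more than the groups did.

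In limma's test over all genes with Benjamini-Hochberg adjustment, 0 of the 2 genes passed an adjusted p of 0.05, as did 0 of 1843 genes (0%). At an unadjusted p of 0.05, 121 genes (6.57%) passed. Ratios of DUT and TYMS were above 0 on both arrays, a sign shared by 454 of the 1843 genes (24.6%). DUT had the twelfth highest mean ratio and TYMS stood at rank 642. Because the ratios guided the choice of both genes, nothing is read from these counts.

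The ratio of DUT exceeded that of TYMS by 0.23 on array 1 and 0.25 on array 2 (mean 0.24 ± 0.0096, SD, n = 2). The BM readings of DUT were at or next to the maximum, so this difference rests on a bounded DUT ratio, and its SD does not measure the spread between BM cultures. DUT and TYMS also lie at different brightness, where the ratios of all spots differ before normalization. Median centring, which leaves the intensity trend in place, put DUT at 0.79 and 0.74 (mean 0.76, or 1.70-fold) and TYMS at -0.030 and -0.019 (mean -0.025). DUT was among the genes past limma's adjusted threshold in this setting and TYMS was not, from which nothing is read, since both were chosen on these ratios and the DUT spread was held down by the maximum. Of the 1843 genes, 34 (1.84%) passed, 33 of them higher in BM (1.79%) and 1 lower (0.0543%). With no normalization, which shifts the median of all genes to -0.21, DUT had 0.55 and TYMS -0.23, and both passed. So did 1251 genes (67.9%), 44 of them higher in BM (2.39%) and 1207 lower (65.5%), so the TYMS call went with the shift of all genes. Relative to that shift, both had about their median-centred values. The sign of DUT was positive under every normalization and background correction tried, while that of TYMS turned negative with median centring and with no normalization.

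**Figure D3:**
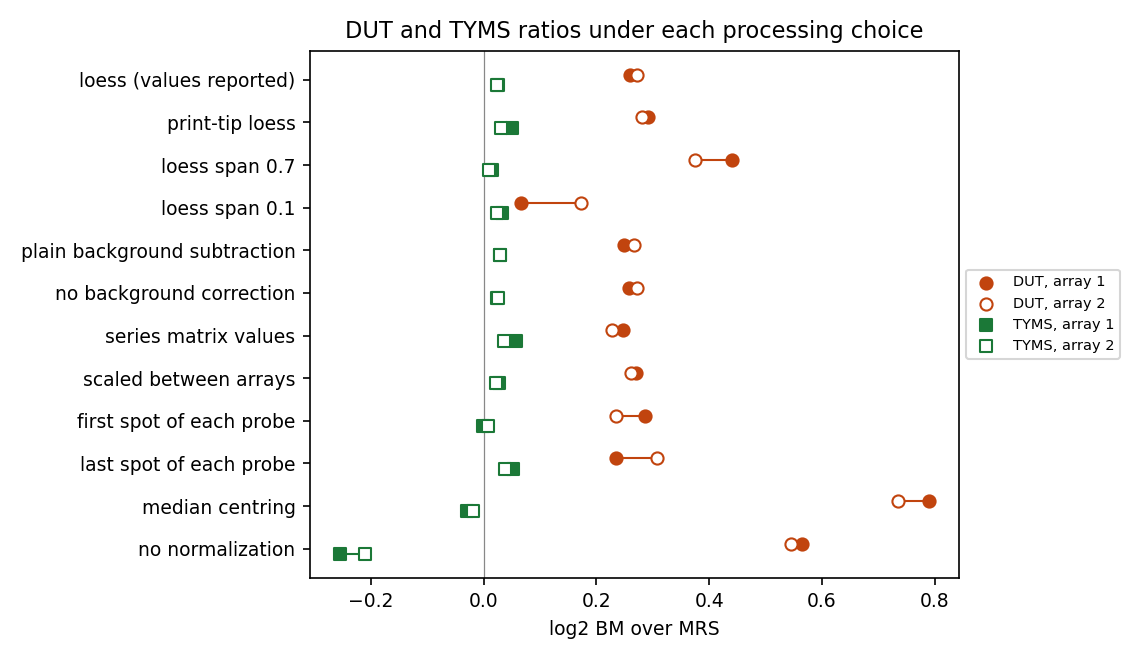
Log2 BM over MRS ratio of DUT (circles) and TYMS (squares) on array 1 (filled) and array 2 (open) under each normalization, background correction or choice of spots. DUT is positive in each, from a mean of 0.12 with a loess span of 0.1 to 0.76 with median centring, and TYMS lies near 0 in all but the values with no normalization.

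The deposited net intensities do not show the saturation of DUT. In the BM channel the authors' net intensity differs from raw minus background by a further factor, which was 0.7999 to 0.8044 at the DUT spots and 1.19 to 1.26 at the TYMS spots. The median of that factor over the brightest 10% of spots was 0.975 in BM replicate 1 and 0.972 in BM replicate 2. The 3 saturated DUT spots thus stand at 52410 to 52631 net units in BM and the fourth at 52339, below the scanner's maximum, against 43512 to 45869 in MRS, where the factor is 1. The TYMS spots stand at 646 to 1013 net units in BM and 615 to 993 in MRS. On these values the log2 ratios were 0.25 and 0.23 for DUT and 0.057 and 0.037 for TYMS.

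The authors' deposited table gives the DUT spots fold changes of 1.18 and 1.18 and z ratios of 2.18 and 2.27, the z ratio being the difference between the groups' z-scores over the SD of that difference across spots. For the TYMS spots the authors' deposited table has fold changes of 1.01 and 1.06 and z ratios of 0.231 and 0.850. A z ratio of 2 was reached by both DUT spots and neither TYMS spot. Among all 3840 spots of the authors' deposited table, 95 (2.47%) have at least that value, and 201 (5.23%) have it in either direction.

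Measured genes of thymidylate and uracil metabolism, with DUT and TYMS counted, were divided between the signs much as all genes were. Of 56 genes in lists chosen by known function, 18 were measured with DUT and TYMS included, all above background in all 4 samples. After loess the ratios of 4 of the 18 were above 0 on both arrays, those of 5 were below 0 (28.5% of all genes were) and 9 had opposite signs, against 454, 526 and 863 of all 1843 genes, and 0 passed limma's adjusted threshold. Without DUT and TYMS, which were picked with their ratios known, 2 of 16 were higher (24.6% of all genes were), 5 lower and 9 of opposite sign. Both left-out genes were above 0 on both arrays, which lowers the count of higher genes by construction, so nothing is read from that count. The median of the 18 mean ratios was -0.028, against -0.0057 over all genes. It was 0.0090 on array 1 and -0.019 on array 2, so its sign turned between the arrays.

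Among 5 measured genes of thymidylate synthesis and the folate cycle, 2 were higher on both arrays, 1 was lower and 2 had opposite signs. SLC19A1, the reduced folate carrier that also takes up antifolate drugs, had mean raw intensities of 5526 and 7981 in BM and 7023 and 10089 in MRS. Its ratios were -0.17 and -0.23, a mean of -0.20 ± 0.040 (SD, n = 2), and its mean ran from -0.21 to -0.14 over the settings that kept all samples and normalized the ratios. GGH, which trims folate polyglutamates, had 0.012 and 0.066, and its mean of 0.039 turned to -0.0056 with median centring and -0.0075 with print-tip loess. FOLR1, a folate receptor, had 0.15 and -0.32, so its sign turned between the arrays.

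Of 7 measured genes that remove dUTP or other damaged nucleotides or excise uracil, 1 was higher on both arrays, against 24.6% of all genes. It was DUT, which was picked with its ratio known. The uracil glycosylase gene UNG had -0.026 and 0.012. TDG and MBD4, glycosylases that act on mismatched thymine and uracil, had 0.012 and -0.0097 for TDG, and 0.0014 and -0.061 for MBD4. APEX1, the endonuclease that cuts at the site left by a glycosylase, had 0.027 and -0.0049. Mean ratios of these 4 genes lay between -0.030 and 0.011, all smaller than the DUT ratio. Their log2 intensities were 13.2 or lower, against 15.7 for DUT, so they were not compared at like brightness. ITPA, which clears inosine triphosphate, had -0.069 and -0.018, and NUDT1, which clears oxidized purine nucleotides, had 0.0063 and -0.078. With print-tip loess the mean ratios of ITPA and NUDT1 turned positive, to 0.017 and 0.0029.

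Of 4 measured genes of deoxynucleotide supply and salvage, 3 had ratios below 0 on both arrays, a sign shared by 28.5% of all genes, and 2 of those 3 changed sign in another setting. SLC29A2, a nucleoside transporter, had -0.14 and -0.057 (mean -0.098 ± 0.057, SD, n = 2). CDA, cytidine deaminase, had -0.093 and -0.021 and turned to a mean of 0.056 with median centring. NME2, a nucleoside diphosphate kinase, had -0.026 on both arrays and turned to 0.0069 with print-tip loess. TK1, the thymidine kinase that supplies dTMP by salvage, had -0.17 and 0.059, opposite signs, and a mean of 0.15 with median centring.

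UMPS stood nearest to DUT in size among the pathway genes. It makes UMP in pyrimidine synthesis and is also an activator of fluorouracil. Its mean raw intensities were 1622 and 1918 in BM and 1558 and 1949 in MRS. The UMPS ratios after loess were 0.32 and 0.18, a mean of 0.25 ± 0.099 (SD, n = 2), or 1.19-fold. The mean ran from 0.20 to 0.27 over the settings that kept all samples and normalized the ratios. Before normalization the UMPS spots had 0.075 and -0.0023 on array 1 and -0.048 and -0.068 on array 2. The median of all genes was then -0.21. Its spots were far from saturation, at a log2 intensity of 10.6 and 10.9. DPYD, which breaks fluorouracil down, had 0.097 and -0.26, so its arrays did not share a sign.

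**Figure D4:**
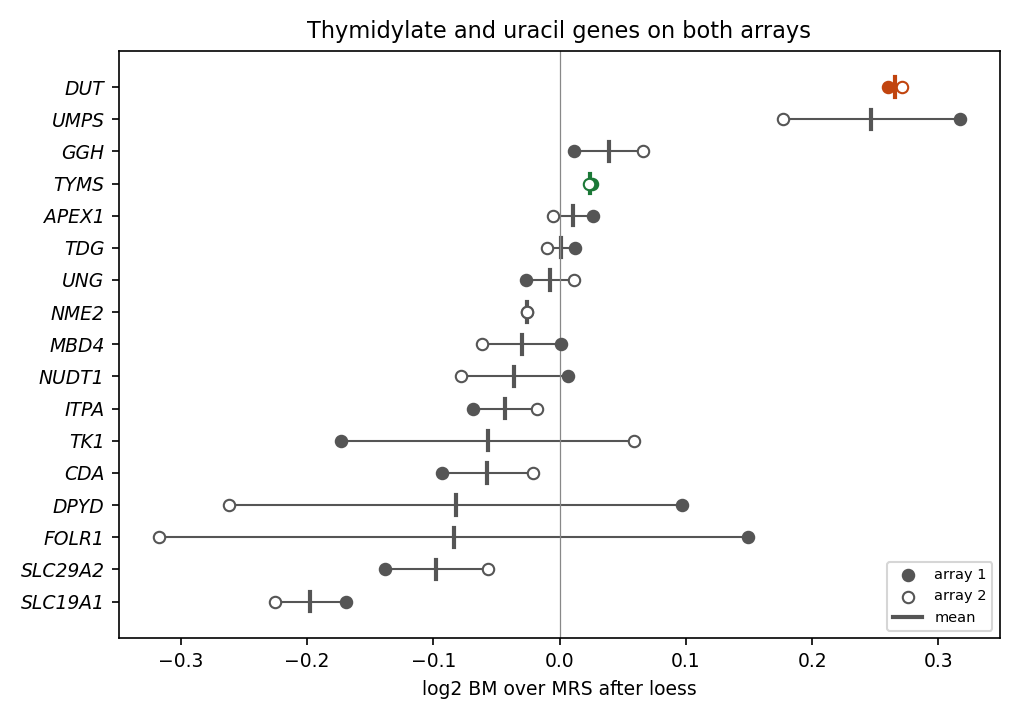
Log2 BM over MRS ratio after loess of 17 of the 18 measured thymidylate and uracil genes on array 1 (filled) and array 2 (open), with the mean as a bar, in order of the mean. DUT and UMPS lie highest at 0.27 and 0.25 and SLC19A1 lowest at -0.20, and 8 of the 17 drawn have opposite signs on the arrays.

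Genes of the G1/S transition and DNA replication, which share E2F control with DUT and TYMS, gave small ratios. Of 9 measured genes, 0 had ratios above 0 on both arrays (24.6% of all genes) and 2 had ratios below 0 on both (28.5% of all genes), with a median of -0.012 and a range from -0.064 to 0.018. RFC1, a clamp loader subunit, had -0.011 and -0.12, and CCNA2, an S-phase cyclin, had -0.025 and -0.060, though the mean of CCNA2 turned to 0.011 under print-tip loess and 0.029 on the series matrix. In these lists 8 of the 9 genes and 3 of the 4 repair genes that follow were above background in all 4 samples. Of 4 measured partners that complete base excision repair, PARP1, a sensor of strand breaks, was higher on both arrays at 0.015 and 0.13, and the other 3 had opposite signs. The reference genes ACTB and GAPDH had mean ratios of 0.034 ± 0.062 and 0.020 ± 0.0083 (SD, n = 2), close to that of TYMS, and turned to -0.0039 and -0.017 with median centring.

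The genes nearest to DUT in their pair of ratios, by Euclidean distance over the 2 arrays, were ABCC4, RPL5, CTSZ, STAG1 and BCAN, at distances of 0.031 to 0.049. These distances are to the DUT readings as they stand, which the maximum bounds in BM, and a BM spot of RPL5 reached 99.99% of it in replicate 2, so the order of the genes is no more than a description of the readings. RPL5 and CTSZ, a lysosomal protease gene, were nearly as bright as DUT, and median centring moved them with it, to 0.73 and 0.73. ABCC4, STAG1 and BCAN were of lower brightness and stood at 0.23, 0.25 and 0.23 with median centring, close to their loess values. The genes nearest to TYMS were TNFRSF17, MYO1A, OCA2, PPM1J and IL22, at distances under 0.009. DUT had 5 genes within a distance of 0.05, and TYMS had 223.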

How the data were processed

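The authors deposited, per the file headers, the mean raw intensity, the mean local background and a net intensity of 3840 spots on each of 2 two-colour arrays. The image software is not named in the sources used here. R 4.2.2 is named in the submitters' processing notes without a role. The series matrix holds the net intensities. The authors' deposited table gives a fold change (a ratio of scaled group means) and a z ratio (a score), per its file header.

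Background correction used normexp (offset 50) and normalization used loess (span 0.3), both in limma 3.58.1 (R 4.3.3), with 54 control spots at weight 0. Spots of a probe were averaged, and 1856 probes gave 1843 genes. Through RefSeq (GRCh38.p14), 1701 probes were named by accession and 75 more by symbol or synonym. Another 5 probes kept their deposited name. The other 75 had no gene name, and each of these was counted as a gene of its own. The brightest probe stood for a gene. The limma fit was an intercept on the 2 ratios with eBayes, two-sided. P-values measure only the spread between these samples. Each ratio keeps the array as a block, and the pairing comes from the labels, where each array holds 1 replicate number. Loess and the limma fit were tested on simulated data. These held no background step and no ceiling at 65535, so they do not bear on the saturated DUT spots.

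Named genes were DUT, TYMS, all measured pathway genes but 1 that is not reported here, up to 3 members of other lists with one sign on both arrays, ACTB, GAPDH and the 5 nearest genes of each member. Members and lists were chosen with earlier results of these data known. The alternatives covered normalization, loess span, background correction, source of values, choice of spots, the block and left-out samples.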

Additional observations from a re-analysis of the deposited data

How the results depend on the processing

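The count of genes passing an adjusted p of 0.05 in limma was 0, and it moved to 34 with median centring and 1251 with no normalization. DUT moved by more than the SD between arrays to 0.29 with print-tip loess, 0.76 with median centring, 0.55 with no normalization, 0.41 with a loess span of 0.7, 0.24 with the series matrix values, and, in alternatives added after seeing the data, 0.12 with a span of 0.1 and 0.28 with the spots near the maximum at weight 0. With the DUT spots alone at weight 0 it was 0.27. TYMS stood in these settings at 0.040 (print-tip loess), -0.025 (median centring), -0.23 (no normalization), 0.012 (span 0.7), 0.047 (series matrix) and 0.028 (span 0.1), and at 0.029 with plain background subtraction and 0.0034 or 0.045 from the first or last spot alone. DUT minus TYMS was 0.79 with median centring and with no normalization, 0.40 with span 0.7, 0.23 with plain subtraction, 0.19 with the series matrix, 0.26 and 0.23 from the first and last spots, 0.091 with span 0.1 and 0.25 with the spots near the maximum at weight 0. The median of the 18 pathway genes, -0.028, stood at -0.24 with no normalization, where the median of all genes was -0.21, and at -0.0052 with the series matrix. The cause of these moves was not tested beyond the intensity trend, which median centring and no normalization leave in by construction.

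No replicate block (channels as samples) left all 4 values as they were (DUT 0.27, TYMS 0.024) and the count at 0. Leaving out 1 sample at a time in that fit gave 0.23 to 0.30 for DUT, -0.33 to 0.38 for TYMS, -0.088 to 0.57 for their difference (-0.081 without MRS replicate 1 and 0.56 without MRS replicate 2) and 0.0087 to 0.064 for the pathway median (0.011 and 0.038 without MRS replicate 1 or 2). The difference between arrays enters these values by construction, and the lone sample of a group is assumed to vary like the others. Without replicate 1 or replicate 2 as a pair, a single ratio remains and no test: DUT stood at 0.26 to 0.27, TYMS at 0.023 to 0.025, their difference at 0.23 to 0.25 and the pathway median at -0.019 to 0.0090. The scanner's maximum limits DUT in BM, so its ratio is bounded for a given normalization, and no setting here lifts that. For TYMS, left-out samples and normalization moved the value more than background correction did.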
